A study of Mus musculus with 5 samples.

Results

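The peak lists of E2F1 and E2F3B in mouse embryonic fibroblasts were compared by position, taking every peak of both lists. The E2F1 list held 3787 peaks and the E2F3B list 4704, together 8491 of the 10489 peaks in the series. Chromatin immunoprecipitation followed by sequencing (ChIP-seq), in which DNA bound by a protein is pulled down with an antibody and sequenced, gave 1 library per protein. The E2F1 group was cells stably overexpressing E2F1, precipitated with an antibody against E2F1. The E2F3B group was cells stably overexpressing E2F3B, precipitated with an antibody against E2F3. Both groups were untreated, proliferating and unsynchronised, and both came from mice of a mixed strain background that combined FVB/NT, 129S1/Svlmj and C57BL/6NT. How strongly each protein was overexpressed, from which promoter, and whether a culture was a clone or a pool is left unstated by the labels. The series also holds a library of cells overexpressing E2F3A and 2 knockout libraries, and the knockout libraries were not analysed here. The 1998 E2F3A peaks were used only to mark positions that list shares and to give the same measures side by side. Peak lists hold no expression values, so the cell type was not checked against its markers.

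E2F proteins bind DNA as dimers with a DP protein and regulate genes of DNA replication and cell cycle entry. They are held in check by the retinoblastoma family of pocket proteins, which release them as a cell commits to division. E2F1 and E2F3 are separate genes. E2F3 gives E2F3A and, from a start site inside the gene, E2F3B, which has a shorter N-terminus and the same DNA-binding domain. In fibroblasts E2F1 and E2F3 are both known for promoting entry into S phase, so where the 2 proteins were called at the same places, and how closely their peaks lay on each other, was the question of the comparison.

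Each protein had 1 library, so the spread between replicates is unknown, no test was made, and all values describe these libraries. The antibody differed between the lists as well as the protein, so the effects of the 2 cannot be told apart. The E2F3 antibody was also used for the E2F3A list, so a call in the E2F3B list need not be of that isoform alone. Intervals are 95% intervals over peaks (Wilson for shares, exact order-statistic for medians, exact Clopper-Pearson for window shares) and cover counting error only. The files used give positions alone, without scores, summits or counts of reads. The depth is therefore unknown, and absence of a call is no measurement of absent binding. The centre of a peak is the midpoint of its called ends and need not be the bound site. Positions are in the mouse build mm9, and genes at them were not analysed here because the gene table at hand is of another build.

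Of the E2F1 peaks, 1646 (43.5%) overlapped an E2F3B peak by at least 1 bp, and 1732 (36.8%) of the E2F3B peaks overlapped an E2F1 peak. With an overlap of at least 50% of both peaks the shares were 28.5% and 22.9%. The overlaps of at least 1 bp formed 1735 pairs. In 1555 of them (89.6%, interval 88.1 to 91.0) each peak overlapped no other peak of the other list, and these are called simple pairs here. The median overlap of a pair was 391 bp (interval 381 to 399), with a range of 4 to 1429 bp. The overlap was lopsided because the E2F1 peaks were wider: within the overlapping peaks E2F3B covered 58.4% of the E2F1 bases, and E2F1 covered 91.3% of the E2F3B bases. E2F1 was the wider peak in 1398 simple pairs (89.9%), E2F3B in 155, and the widths were equal in 2. In the median simple pair the E2F3B peak had 0.629 times the width of the E2F1 peak (interval 0.615 to 0.646). Across the 1555 simple pairs the 2 widths were related with r = 0.378 (Pearson) and rho = 0.314 (Spearman), so a wide E2F1 peak went only loosely with a wide E2F3B peak. Peak width depends on fragment length and on the peak caller as well as on binding, and the libraries were not normalised to each other.

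The centres of overlapping E2F1 and E2F3B peaks lay close together and without a preferred side. Only overlapping peaks were paired, which by itself limits how far apart their centres can lie. The median distance between the centres was 94 bp (interval 88.5 to 100.5, 1735 pairs), with quartiles of 41 and 164 bp. The E2F3B centre was within 50 bp of the E2F1 centre in 517 pairs (29.8%), within 100 bp in 906 (52.2%) and within 200 bp in 1424 (82.1%). It lay at the higher coordinate in 855 pairs and at the lower in 876, and the centres coincided in 4. The signed offset, E2F3B minus E2F1, had a median of -2 bp (interval -10.5 to 5), so its interval held 0. The E2F3B centre fell inside the E2F1 peak in 1682 pairs (96.9%), and the E2F1 centre inside the E2F3B peak in 1424 (82.1%). In 48 pairs neither centre lay inside the other peak.

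**Figure D1:**
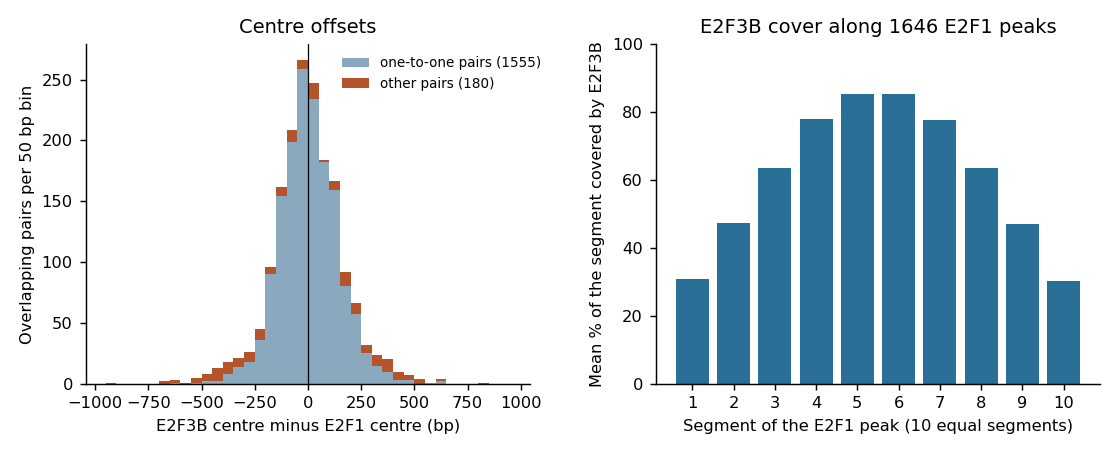
Left, the number of overlapping pairs by signed centre offset, E2F3B minus E2F1 in bp, in 50 bp bins, with simple (one-to-one) pairs and other pairs stacked. Right, the mean percentage covered by E2F3B in each of 10 equal segments of an E2F1 peak, from low to high coordinate, over the 1646 overlapping E2F1 peaks. The offsets centre on 0, and cover is highest in the middle segments at 85.3% and lowest at the ends, at 30.7% and 30.1%.

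Of the 143 offsets over 300 bp, 81 were in pairs that were not simple, although such pairs were few. Simple pairs had a median offset of 86 bp (interval 79 to 91), and the other 180 pairs 266.5 bp (interval 226.5 to 316). An offset over 300 bp was thus found in 62 of the simple pairs (3.99%, interval 3.12 to 5.08) and in 81 of the 180 others (45.0%, interval 37.9 to 52.3). Most of these others came from E2F1 peaks with several separate E2F3B peaks, which cannot all lie near the E2F1 centre. Part of the contrast is therefore built in. The 3 largest offsets were all in E2F1 peaks that held several E2F3B peaks. The largest, 907 bp, was on chromosome 13, where an E2F3B peak from 30076549 to 30076956 overlapped the lower end of the E2F1 peak from 30076822 to 30078497 by 135 bp. The next was 811 bp on chromosome 10, between the E2F1 peak from 4540177 to 4541898 and the E2F3B peak from 4541583 to 4542114. The following one was 698.5 bp on chromosome 5, between the E2F1 peak from 138612046 to 138613817 and a nested E2F3B peak from 138612116 to 138612350.

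At the other end of the range, 4 pairs had the same centre to the base. On chromosome 1 an E2F3B peak of 475 bp (71149443 to 71149917) lay 42 bp inside both ends of a 559 bp E2F1 peak. On chromosome 7 a 392 bp E2F3B peak (52271574 to 52271965) lay 54 bp inside both ends of a 500 bp E2F1 peak. On chromosome 19 a 335 bp E2F3B peak (7568794 to 7569128) lay 277 bp inside both ends of an 889 bp E2F1 peak. These 3, the pairs with the widest E2F3B peaks among the 4, also overlapped E2F3A. Of all 1555 simple pairs, 603 had E2F3A overlap, and their E2F3B peaks were wider, with a median of 483 bp against 404.5 bp without. Centring thus occurred with E2F3B peaks of nearly the E2F1 width and with much narrower ones, from 85.0% to 37.7% of the E2F1 width.

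Measured against the width of the E2F1 peak, the offset did not rise steadily with width. The E2F1 list was divided into quartiles of width. In the narrowest, 249 to 516 bp, the median offset was 51 bp (interval 41.5 to 58.5), and in the widest, 750 to 2011 bp, it was 112.75 bp (interval 104.5 to 122.5). As a percentage of the distance from the centre to the end of the E2F1 peak, the medians were 24.1%, 29.4%, 31.1% and 23.7% from the narrowest to the widest quartile. These medians were thus higher in the middle quartiles, and no intervals were made for them. Over all pairs this relative offset had a median of 26.8% (interval 24.8 to 28.2). The cover of E2F1 peaks by E2F3B was highest in the middle of the peak. It was 30.7% in the first of 10 equal segments, 63.6% in segment 3, 85.3% in segments 5 and 6, and 30.1% in the last.

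More than 1 in 2 of the overlapping E2F3B peaks lay whole inside an E2F1 peak. Such nested peaks numbered 1022, which is 59.0% of the 1732 overlapping E2F3B peaks (interval 56.7 to 61.3) and 21.7% of the whole E2F3B list. They lay in 1001 E2F1 peaks. Partial overlaps numbered 669 (38.6% of pairs, interval 36.3 to 40.9). The reverse, an E2F1 peak whole inside an E2F3B peak, was found in 44 pairs (2.54%, interval 1.89 to 3.39), and no pair had identical ends. Nested E2F3B peaks had a median of 391 bp inside E2F1 peaks of 774.5 bp, while the peaks in partial overlaps had medians of 468 and 645 bp. In the 44 reverse cases the E2F1 peak had a median of 444 bp and the E2F3B peak 559.5 bp.

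**Figure D2:**
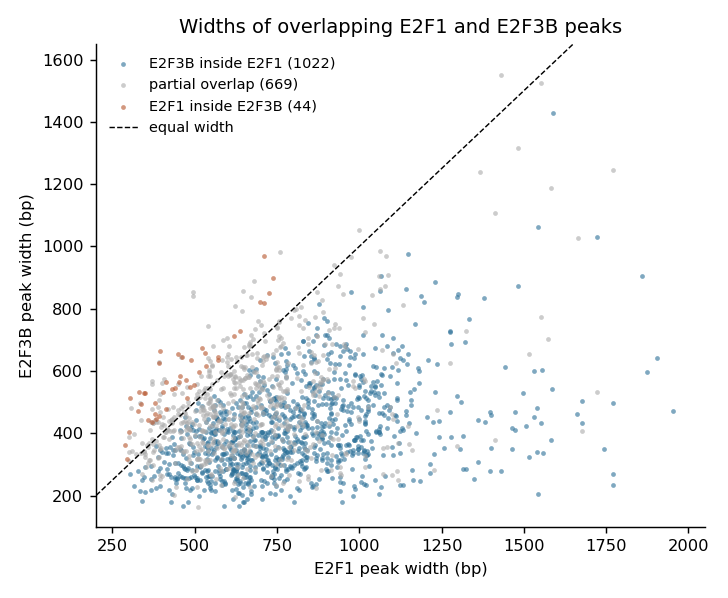
Width of the E2F3B peak against width of the E2F1 peak in bp, 1 point per overlapping pair, coloured by nesting, with a dashed line at equal width. Nested E2F3B peaks lie below the line, the 44 E2F1 peaks inside an E2F3B peak lie above it, and partial overlaps lie on both sides.

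Nesting followed the ratio of the widths, which sets how much room a peak has. Where the E2F3B peak had under 40% of the E2F1 width, 246 of 288 pairs were nested (85.4%, interval 80.9 to 89.0). At 60 to 70% of the width 158 of 255 were nested (62.0%, interval 55.9 to 67.7), and at 90 to 100% 11 of 102 (10.8%, interval 6.13 to 18.3). By E2F1 width, the nested share of pairs went from 35.9% in the narrowest quartile through 47.1% and 57.1% to 72.5% in the widest. Even with the narrowest E2F3B peaks, 42 of 288 pairs crossed an end of the E2F1 peak. The absolute offset was also lower at the higher ratios, with a median of 129.5 bp under 40% of the width and 70.25 bp at 90 to 100%. These medians were over all 1735 pairs, including the 180 that were not simple, and E2F1 width was not held fixed.

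Nested E2F3B peaks were spread along the room they had, with more of them towards the middle. The nearer end of the E2F1 peak was a median of 87 bp away (interval 79 to 94) and the farther end 257.5 bp (interval 248 to 268). On a scale from 0, centred, to 100%, touching an end of the E2F1 peak, the median position was 41.9% (interval 39.1 to 45.0). Cut into 4 equal steps from the middle outwards, this scale held 312, 280, 233 and 197 of the 1022 nested peaks. In 68 (6.65%) an end lay within 10 bp of the E2F1 end, and an end was exactly shared in 6, of which 3 shared the start and 3 the end.

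Partial overlaps crossed both ends of the E2F1 peaks about equally and mostly by a short stretch. The E2F3B peak passed the lower end in 331 pairs and the upper end in 338. The part outside had a median of 70 bp (interval 64 to 79), or 14.4% of the E2F3B peak. In 266 of the 669 (39.8%) it was 50 bp or less, so a small change in the called ends would make these nested. More than 50% of the E2F3B peak lay outside in 53 pairs (7.92%).

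The narrowest nested E2F3B peaks against their E2F1 peak were 2 on chromosome 5, both inside the E2F1 peak from 138612046 to 138613817, and 1 on chromosome 14. The latter ran from 68333329 to 68333534 and had 13.3% of the width of its E2F1 peak, 68333031 to 68334574. The E2F3B peaks that were widest against E2F1 were over 1.5 times as wide. On chromosome 6 an 855 bp E2F3B peak (71582611 to 71583465) had 173.1% of the width of the E2F1 peak it overlapped, 71582452 to 71582945. On chromosome 2 an 842 bp E2F3B peak (131087989 to 131088830) had 170.4% of the width of its E2F1 peak. On chromosome 12 a 514 bp E2F3B peak (110030952 to 110031465) enclosed an E2F1 peak of 304 bp.

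Among the E2F1 peaks that lay whole inside an E2F3B peak, the 3 widest were called for E2F3A too. The share over all 44 such peaks is not given here, and it was 38.6% of all E2F1 peaks with 1 E2F3B peak. Width went with E2F3A overlap, as E2F1 peaks of simple pairs had medians of 735 bp with it and 670 bp without. On chromosome 9 the 738 bp E2F1 peak from 20756811 to 20757548 lay inside an E2F3B peak of 899 bp, with centres 9.5 bp apart. On chromosome 8 a 727 bp E2F1 peak (82162854 to 82163580) lay inside one of 851 bp, with centres 4 bp apart. On chromosome 5 a 712 bp E2F1 peak (33994788 to 33995499) lay inside one of 819 bp, with centres 35.5 bp apart, above the median of 28.75 bp for the 44 such pairs.

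E2F1 peaks that held 2 or more E2F3B peaks were few and wide. There were 87, or 2.30% of all E2F1 peaks and 5.29% of those that overlapped E2F3B (interval 4.31 to 6.47). Of these, 85 held 2 E2F3B peaks and 2 held 3, giving 176 overlaps, in which an E2F3B peak counts once for each E2F1 peak it overlapped. In the opposite direction 3 E2F3B peaks each overlapped 2 E2F1 peaks. The 87 had a median width of 941 bp (interval 869 to 1018), against 692 bp for the 1559 E2F1 peaks with 1 E2F3B peak and 568 bp for the 2141 with none. Their widths ranged from 456 to 1772 bp. By decile of E2F1 width, 46 of the 379 widest peaks held 2 or more (12.1%, interval 9.22 to 15.8), against 13 of 379 in the ninth decile and 0 to 4 in each of the 7 narrowest. A wider peak has more room for several others, and this was not separated from any other difference.

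**Figure D3:**
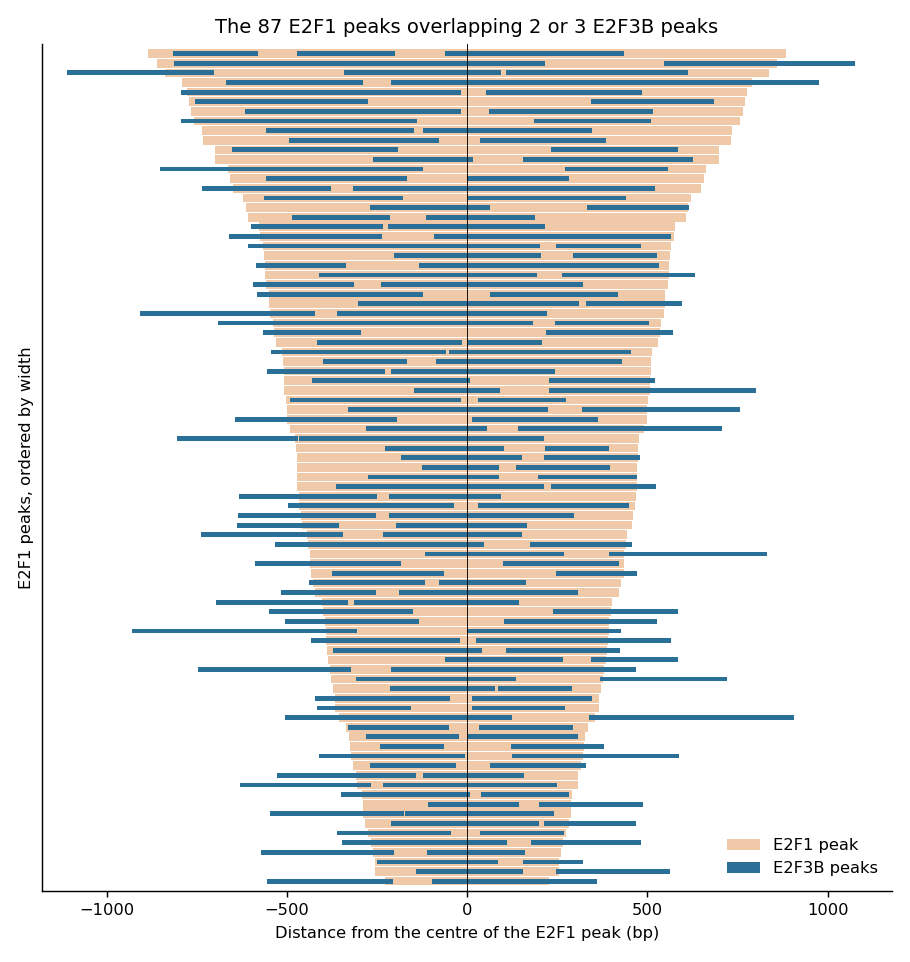
Each row is an E2F1 peak that overlapped 2 or 3 E2F3B peaks, ordered by width, with the E2F3B peaks drawn on it. The x axis is the distance in bp from the centre of the E2F1 peak. In most rows a short gap separates E2F3B peaks whose own centres lie on both sides of the E2F1 centre.

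The E2F3B peaks within these E2F1 peaks were close neighbours. The gap between neighbouring E2F3B peaks had a median of 84 bp (interval 70 to 110, 89 gaps) and ranged from 1 to 620 bp. It was 50 bp or less in 24 and 100 bp or less in 51. Their centres were a median of 500 bp apart (interval 452.5 to 537), with a range of 256.5 to 1109.5 bp. The E2F3B peaks had a median width of 370 bp (interval 349 to 398), against 431 bp (interval 421 to 439) where an E2F1 peak held 1. Over the whole E2F3B list 79 of 4684 neighbouring peaks were 100 bp or less apart (1.69%), so 51 of these 79 short gaps lay in an E2F1 peak. The E2F1 list had 13 such gaps of 3767 (0.345%), with none under 54 bp. When E2F3B peaks up to 100 bp apart were joined first, 37 E2F1 peaks held 2 or more, and 2 did when peaks up to 500 bp apart were joined. The count thus rests on the gaps the caller left between E2F3B peaks.

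In position, the E2F1 centre mostly lay between the centres of the 2 E2F3B peaks, and often inside one of these peaks. Of the 85 E2F1 peaks with 2 E2F3B peaks, 72 (84.7%, interval 75.6 to 90.8) had their centre between the 2 E2F3B centres. Part of this is built in, since 2 separate peaks that overlap 1 E2F1 peak tend to fall on its 2 sides. The nearer E2F3B centre was a median of 129 bp away and the farther 380 bp. The nearer one was the wider in 48 of 85. The midpoint of the 2 E2F3B centres was a median of 120 bp (interval 74 to 159) from the E2F1 centre. All E2F3B peaks were nested in 19 of the 87 E2F1 peaks, 1 crossed an end in 57, and both ends were crossed in 11. The E2F1 centre lay inside one of the E2F3B peaks in 59 of the 87 (67.8%).

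The 6 E2F1 peaks with the most E2F3B peaks, the widest first among equals, show these arrangements. The E2F1 peak of 1772 bp on chromosome 5, from 138612046 to 138613817, held 3 nested E2F3B peaks of 235, 271 and 497 bp, the widest of them nearest the centre and the only one that also overlapped E2F3A. The 1676 bp E2F1 peak on chromosome 13, from 30076822 to 30078497, held 3 E2F3B peaks of 408, 433 and 503 bp, the first of which reached 273 bp past its lower end. The 1722 bp E2F1 peak on chromosome 10, from 4540177 to 4541898, held E2F3B peaks of 1029 and 532 bp, the second reaching 216 bp past its upper end. All 3 of these E2F1 peaks also overlapped E2F3A, as did 37 of the 87 (42.5%).

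The other 3 each held 2 E2F3B peaks. On chromosome 1 the 1581 bp E2F1 peak from 88337872 to 88339452 held E2F3B peaks of 380 and 1187 bp, the second reaching 185 bp past its upper end. On chromosome 2 the 1552 bp E2F1 peak from 75496806 to 75498357 held E2F3B peaks of 775 and 434 bp, the first reaching 17 bp past its lower end. On chromosome 10 the 1540 bp E2F1 peak from 118675886 to 118677425 held nested E2F3B peaks of 481 and 340 bp with centres 515.5 and 515 bp on the opposite sides of its own. The middle of that E2F1 peak was in no E2F3B peak, and it was the one of the 6 without E2F3A overlap.

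The E2F3A list, precipitated with the same antibody as E2F3B, gave the same measures side by side. E2F3A peaks in E2F1 peaks had a median centre offset of 90 bp (interval 80.5 to 95, 711 pairs), and 74.0% were nested (interval 70.6 to 77.1). For E2F3A in E2F3B the values were 55.5 bp (interval 51.5 to 60.5, 840 pairs) and 43.1% (interval 39.8 to 46.5). Of the E2F1 peaks that overlapped E2F3A, 13 of 698 (1.86%) held 2 E2F3A peaks. Peak widths differ between the 3 lists, and the differences between these values were not tested.

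E2F3A overlap went with E2F3B overlap of an E2F1 peak but hardly with the number of E2F3B peaks. Of the E2F1 peaks with no E2F3B peak, 59 of 2141 overlapped E2F3A (2.76%, interval 2.14 to 3.54). The share was 602 of 1559 (38.6%, interval 36.2 to 41.1) with 1 E2F3B peak and 37 of 87 (42.5%, interval 32.7 to 53.0) with 2 or more. Simple pairs with E2F3A overlap had a median offset of 83.5 bp (interval 72.5 to 91, 603 pairs) and those without 87.5 bp (interval 79.5 to 97.5, 952 pairs), and these intervals overlapped. As a percentage of the distance from the centre to the end of the E2F1 peak, the medians were 22.3% (interval 20.2 to 24.2) and 26.4% (interval 24.5 to 28.6), whose intervals did not overlap. The widths differed too, with median E2F1 peaks of 735 bp with E2F3A overlap and 670 bp without. The E2F3B peaks had medians of 483 and 404.5 bp. Width was not separated from E2F3A overlap, and the difference was not tested. The nested shares were 56.9% (interval 52.9 to 60.8) and 61.1% (interval 58.0 to 64.2).

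At 586 places 1 peak of each list overlapped 1 of each other list. There the E2F1 and E2F3B centres were a median of 82.5 bp apart (interval 72.5 to 91), the E2F1 and E2F3A centres 77.5 bp (interval 70.5 to 90) and the E2F3A and E2F3B centres 52.5 bp (interval 47.5 to 58). The E2F3A centre was nearer the E2F3B centre in 355 (60.6%, interval 56.6 to 64.5) and nearer the E2F1 centre in 228. The E2F3A and E2F3B centres lay on the same side of the E2F1 centre in 463 of the 586 (79.0%, interval 75.5 to 82.1). Where the E2F1 and E2F3B centres were over 100 bp apart, this held in 219 of 235 (93.2%, interval 89.2 to 95.8). Both offsets were measured from the same E2F1 centre, which by itself places them on the same side more often, and the 2 E2F3 lists share an antibody. E2F1 peaks had a median of 728 bp at these places, E2F3B peaks 484 bp and E2F3A peaks 373 bp.

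The balance of the lists along the chromosomes was compared in windows of 5 Mb, counting each peak by its centre. Of all peaks of both lists 44.6% were E2F1 peaks. Of 523 windows with a peak, 314 held at least 10 peaks of both lists together, and these contained 7377 of the 8491 peaks. The E2F1 share of a window had a median of 43.75% (quartiles 37.5% and 50%) and ranged from 18.2% to 80%. Over the 523 windows the counts of the lists were related with r = 0.877 (Pearson) and rho = 0.809 (Spearman). Overlapping pairs add a peak to both counts, and over the peaks outside the other list alone the values were 0.595 and 0.552. Neighbouring windows are not independent, and the coefficients are descriptions.

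Most windows were balanced. With each list scaled to its length, E2F1 exceeded E2F3B at least 2-fold in 25 windows (7.96%), E2F3B exceeded E2F1 at least 2-fold in 17 (5.41%), and 272 windows lay between. The order of the 2 counts depended on the setting, since they were 19 and 23 with the grid shifted by 2.5 Mb, 17 and 23 with 2 Mb windows, and 6 and 11 in the 50% widest peaks of each list. The windows past 2-fold were thinly filled, with 10 to 38 peaks in the E2F1 windows and 11 to 32 in the E2F3B windows, while the 20 windows with 50 or more peaks had E2F1 shares from 36.4% to 54.0%. The exact interval of the E2F1 share lay above 44.6% in 7 of the 314 windows (2.23%) and below it in none (0%). These intervals take each peak as a separate draw, although an overlapping pair adds a peak to both counts. How many of 314 such intervals would miss from counting error alone was not tested. By itself the count of 7 does not show that these windows were richer in E2F1. Of those 7, 5 were on chromosome 15, 1 on chromosome 10 and 1 on chromosome 2. All 7 were among the 25 windows past 2-fold for E2F1. The counts of windows depended on the minimum of peaks, being 8 and 6 of 151 windows with at least 20 peaks.

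**Figure D4:**
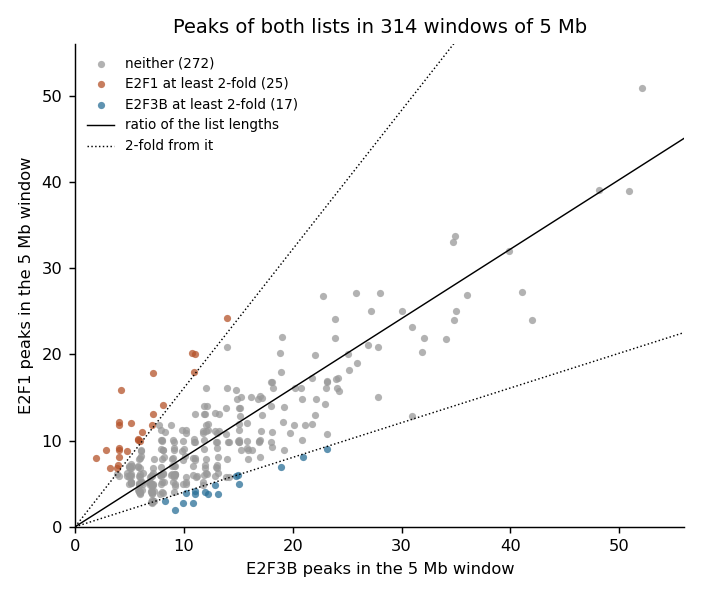
E2F1 peaks against E2F3B peaks in each of 314 windows of 5 Mb with at least 10 peaks, with points shifted slightly at random so that equal counts can be seen. The solid line is the ratio of the list lengths and the dotted lines are 2-fold from it. The windows past 2-fold hold few peaks, and the 3 fullest windows, with 87 to 103 peaks, lie near the solid line.

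The 4 windows with the highest E2F1 share held a share of the E2F1 list 3.73 to 4.97 times their share of the E2F3B list. Chromosome 15 from 50000001 to 55000000 held 16 E2F1 and 4 E2F3B peaks (80% E2F1, interval 56.3 to 94.3). Chromosome 8 from 40000001 to 45000000 held 8 and 2 (80%, interval 44.4 to 97.5). A further window of chromosome 15, from 40000001 to 45000000, and a window of chromosome 2, from 145000001 to 150000000, each held 12 and 4 (75%, interval 47.6 to 92.7). In these 4 windows all but 1 or 2 of the E2F1 peaks were outside the E2F3B list.

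The 4 windows with the lowest E2F1 share held a share of the E2F3B list 2.62 to 3.62 times their share of the E2F1 list. Chromosome 5 from 75000001 to 80000000 held 2 E2F1 and 9 E2F3B peaks (18.2% E2F1, interval 2.28 to 51.8), and chromosome 2 from 100000001 to 105000000 held 3 and 11 (21.4%, interval 4.66 to 50.8). Chromosome 1 from 130000001 to 135000000 held 3 and 10 (23.1%, interval 5.04 to 53.8), and chromosome 12 from 75000001 to 80000000 held 4 and 13 (23.5%, interval 6.81 to 49.9). All 4 intervals included 44.6%. On chromosome 12 all 4 E2F1 peaks of the window overlapped an E2F3B peak.

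The fullest windows were even. Chromosome 15 from 75000001 to 80000000 held 51 E2F1 and 52 E2F3B peaks (49.5% E2F1, interval 39.5 to 59.5). Chromosome 17 from 25000001 to 30000000 held 39 and 51 (43.3%, interval 32.9 to 54.2), and chromosome 10 from 75000001 to 80000000 held 39 and 48 (44.8%, interval 34.1 to 55.9). The first of these lies on the same chromosome as the windows richest in E2F1.

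Windows past 2-fold that adjoin each other were looked for after the values were seen. The longest run was of 4 E2F1 windows on chromosome 15 from 50000001 to 70000000, with 65 E2F1 and 30 E2F3B peaks (68.4% E2F1, interval 58.1 to 77.6). Of these peaks, 52 of E2F1 and 17 of E2F3B were outside the other list. For E2F3B there were 2 runs of 2 windows. Chromosome 3 from 100000001 to 110000000 held 11 E2F1 and 30 E2F3B peaks (26.8% E2F1, interval 14.2 to 42.9), and chromosome 8 from 120000001 to 130000000 held 15 and 40 (27.3%, interval 16.1 to 41.0). Intervals of runs chosen by their own values are too narrow.

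The uneven windows differed in the peaks outside the other list, as they must, since a simple pair adds 1 peak to each side. The 25 E2F1 windows held 305 E2F1 and 150 E2F3B peaks, of which 230 and 72 were outside the other list. The 17 E2F3B windows held 81 and 228, of which 31 and 178 were outside. In the E2F1 windows 52.0% of the E2F3B peaks overlapped E2F1 (interval 44.1 to 59.8), and in the E2F3B windows 61.7% of the E2F1 peaks overlapped E2F3B (interval 50.8 to 71.6). In the 272 balanced windows the shares were 39.2% of E2F3B and 47.5% of E2F1 peaks. The list with fewer peaks in a window was thus more often overlapped there, and part of this is built in, as the other list had more peaks there.

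By whole chromosome the E2F1 share ran from 36.9% on chromosome 1 (156 of 423 peaks, interval 32.3 to 41.7) to 53.6% on chromosome 15 (323 of 603, interval 49.5 to 57.6). Over the peaks outside the other list alone, the share was 29.6% on chromosome 1 (interval 24.0 to 35.7). On chromosome 15 it was 56.5% (interval 51.2 to 61.6). Chromosomes 15 and 10 were the 2 with more E2F1 than E2F3B peaks, chromosome 10 with 331 and 317 (51.1%, interval 47.2 to 55.0). On chromosome 15, 15 of 18 windows were above 44.6% and 7 were past 2-fold for E2F1. On chromosome 10, 19 of 22 were above and 4 past 2-fold. On chromosome 1, 17 of 19 windows were below 44.6%, and on chromosome 8, with 39.0% E2F1 (interval 34.9 to 43.2), 16 of 19 were. Chromosome 9 had nearly the same share, 39.2% (interval 34.8 to 43.7), with 11 of 19 windows below and 8 above. Chromosome 17 had 47.5% E2F1 (interval 43.2 to 51.9). The share of a chromosome is made up of its windows, so these counts are in part built in.

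**Figure D5:**
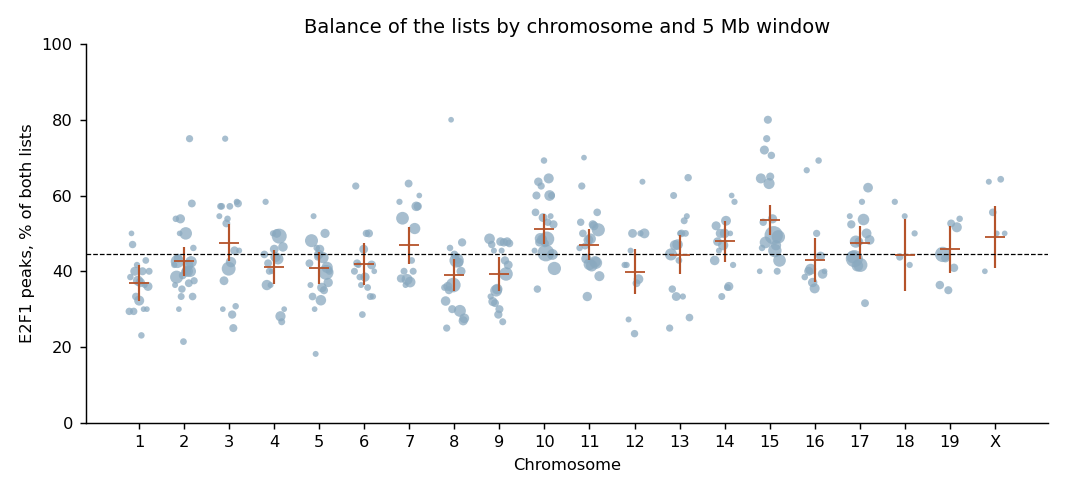
E2F1 peaks as a percentage of the peaks of both lists, by chromosome. Pale points are 5 Mb windows with at least 10 peaks, with area by number of peaks, and red marks are whole chromosomes with 95% exact intervals. The dashed line is the 44.6% of both lists. Chromosome 15 has the highest mark at 53.6% and chromosome 1 the lowest at 36.9%.

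The geometry of the pairs had wide intervals by chromosome. The median centre offset ran from 74 bp on chromosome 4 (interval 63.5 to 95, 113 pairs) to 119 bp on chromosome 17 (interval 92 to 145.5, 128 pairs). The nested share of pairs ran from 47.3% on chromosome 12 (interval 34.7 to 60.2) to 68.6% on chromosome 15 (interval 59.8 to 76.3). On chromosome 15 the median offset was 99 bp (interval 74 to 122.5) and on chromosome 10 82.5 bp (interval 54 to 109.5), and both intervals held the 94 bp of all pairs. The interval of the nested share on chromosome 15 lay above the 58.9% of all pairs. This was the highest of the 20 chromosomes, and among 20 intervals of 95% a miss can arise from counting error alone. E2F1 peaks with 2 or more E2F3B peaks were found on 19 of the 20 chromosomes, with 10 on chromosome 2 and 9 on chromosome 1.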

How the data were processed

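ChIP-seq peak lists of cells overexpressing E2F1 and E2F3B were used, 1 library each, grouped by the genotype label. Per the submitters' processing notes, Bowtie2, SAMtools and the build mm9 were used. Per the file headers, each list gives chromosome, start, end and a peak name that carries MACS. The version of the caller, its threshold and its control are unstated there, and a different threshold would change every count. Starts were taken to count from 0 and 1 was added for printing. Pairs of peaks were compared by position, with an overlap of at least 1 bp, using Python 3.11.15, numpy 2.4.6, scipy 1.17.1 and pandas 2.3.3. Windows were fixed 5 Mb bins holding at least 10 peaks. The counting was checked on simulated data. Features were named by rule: the E2F1 peaks with the most E2F3B peaks, and the extremes of width ratio, offset, nesting and window share. The runs of adjoining windows and the chromosomes described were picked after their values were seen. The comparison, its measures and the rule were chosen with earlier results of these data known. No genome of mm9 was used, so no sequences, motifs or genes are given.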

Additional observations from a re-analysis of the deposited data

How the results depend on the processing

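Of 38 alternative values for 7 results, 17 stayed within the interval of the value, or for counts within 1.5 times of it, and 21 did not. A reciprocal overlap of 50% took the overlapping share from 43.5% to 28.5% of E2F1 and from 36.8% to 22.9% of E2F3B peaks, and the median offset from 94 to 73 bp. The offset was 86 bp in simple pairs and 105.25 bp in the 50% widest peaks of each list. The nested share of 59.0% became 55.5% when ends had to lie 10 bp inside and 62.9% when they could lie 10 bp outside. The 87 E2F1 peaks with 2 or more E2F3B peaks became 20 when only nested peaks counted, 37 and 2 after joining E2F3B peaks up to 100 and 500 bp apart, and 27 in the 50% widest peaks. Windows past 2-fold for E2F1 and E2F3B, 25 and 17, became 10 and 7 of 234 with 10 Mb windows, 46 and 43 of 444 with a minimum of 5 peaks, 8 and 6 of 151 with a minimum of 20, and 6 and 11 of 158 in the 50% widest peaks. With peaks outside the other list they were 31 and 29 of 225, and with the grid shifted by 2.5 Mb 19 and 23 of 327. With 2 Mb windows they were 17 and 23 of 296. Without chromosomes 10 and 15, chosen after seeing the data, they were 14 and 12 of 274. None of the 17 E2F3B windows lay on these chromosomes, and each list was scaled to the length left after their removal. For each alternative the cause was not tested, apart from the number of peaks and windows it left. No paired analysis was possible because 1 library stood for each group. The lists hold no depth, which limits what a peak outside the other list shows.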

Other observations

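Few peaks outside the other list were near misses. Of the 2141 E2F1 peaks that overlapped no E2F3B peak, 12 lay within 100 bp of one, 52 (2.43%) within 500 bp and 140 (6.54%) within 5000 bp, and the median gap to the nearest E2F3B peak was 124197 bp. On the other side, 2972 E2F3B peaks were outside the E2F1 list, of which 23 had an E2F1 peak within 100 bp, 89 (2.99%) within 500 bp and 208 within 5000 bp, with a median gap of 125252 bp. A looser criterion of up to 500 bp would thus move few peaks between the shared and the unshared groups.

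E2F3B overlap did not follow E2F1 width throughout. The share of E2F1 peaks with an E2F3B peak was 33.5% in the narrowest decile of width (249 to 431 bp, interval 28.9 to 38.4), 22.2% in the fifth (571 to 605 bp, interval 18.3 to 26.6) and 79.7% in the widest (936 to 2011 bp, interval 75.3 to 83.4).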
